A study of Homo sapiens with 8 samples.

Results

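Chromatin accessibility around the genes of the TAL1 complex and its partner factors was examined in HUDEP-2 cells, an immortalised human erythroid progenitor line, 1 h after stem cell factor (SCF, which binds the Kit receptor) or the vehicle phosphate-buffered saline (PBS). The 10 genes, called members below, were TAL1, LYL1, TCF3, LMO2, LDB1, CBFA2T3, ZFPM1, GFI1B, NFE2 and RUNX1. ATAC-seq, in which the Tn5 transposase cuts open chromatin and inserts adapters, gave a list of peaks for each library. A peak was assigned to a gene when its summit lay in the gene body or within 50 kb of one of its annotated start sites. Peaks of the 4 libraries that overlapped were merged into regions, which gave 126 regions at the 10 genes, of 43654 in all. Every one was accounted for, and 0 were shared by a pair of these genes.

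The series holds 8 samples in 4 groups of 2, and the 4 samples with a guide against EGR1 were not analysed here. All 4 libraries used carried sgControl, a scramble guide. By the methods of the study, guides were delivered with a lentiviral KRAB-dCas9 vector, infected cells were sorted for GFP, and the duplicates were biological. Cells of both groups had been expanded with SCF, erythropoietin, dexamethasone and doxycycline, and were then kept for 5 h without growth factors before 50 ng/ml SCF or PBS was added for 1 h. Each library was made from 50000 cells.

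TAL1 is a basic helix-loop-helix (bHLH) factor that binds DNA at E-box sequences as a dimer with an E protein such as the product of TCF3. In erythroid cells the dimer is joined to GATA1 through the bridging proteins LMO2 and LDB1, and such assemblies are known for binding an E-box half-site spaced a short way from a GATA site. Corepressors such as the product of CBFA2T3, the repressor GFI1B, and other lineage factors such as RUNX1 and NF-E2 are found at many of the same enhancers.

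The libraries held 29269 to 33616 peaks with a median summit pileup of 20 to 27 fragments, the pileup being the caller's count over the summit. It is written as fragments throughout, although the sources do not say whether fragments or read ends were counted. Read totals are unknown from peak lists, and a site without a peak is one that did not pass the caller's threshold at that depth, not one that is closed. Among 12 erythroid marker genes, 9 had a start-site region called in all 4 libraries. ALAS2 had none called in all 4, and the near-identical fetal globin genes HBG1 and HBG2 had none at all. Of the marker genes of other lineages reported here, SPI1, CD14, ITGA2B and COL1A1 had such a region. CD3E, CD3D, MS4A1, MPO, LYZ, ALB, MYOD1, PF4 and KRT5 had none in any library. The part that other cell types may have in the results was not tested.

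The regions that carry the results are shown first as sequence, 100 bases on each side of the summit, on the plus strand of build hg19 (GRCh37). Capitals mark matches, on either strand, to words for the factors concerned. The words were AGATAA or TGATAA for GATA factors, CAGNTG for the E-box, TGTGGT or TGCGGT for RUNX factors, TGANTCA for AP-1 and GCGTGGG for EGR factors. A composite word was CTG, then 7 or 8 bases, then a GATA word, and an NF-E2 word was TGC directly before the AP-1 word, so that every composite match holds a GATA match and every NF-E2 match an AP-1 match. A match is a description of the letters only.

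The first set are 3 of the 5 regions that were called only after SCF or ranked higher after SCF and that hold a GATA word. They lie at GFI1B (chr9:135860241-135860441, in an intron) and at LMO2 (chr11:33920645-33920845 upstream of the gene, and chr11:33906928-33907128 in an intron).
GFI1B +6.26 kb: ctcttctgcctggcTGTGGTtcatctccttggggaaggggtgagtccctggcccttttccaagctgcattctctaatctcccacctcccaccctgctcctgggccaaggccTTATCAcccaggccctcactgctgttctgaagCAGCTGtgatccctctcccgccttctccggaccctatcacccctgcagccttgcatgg
LMO2 −7.12 kb: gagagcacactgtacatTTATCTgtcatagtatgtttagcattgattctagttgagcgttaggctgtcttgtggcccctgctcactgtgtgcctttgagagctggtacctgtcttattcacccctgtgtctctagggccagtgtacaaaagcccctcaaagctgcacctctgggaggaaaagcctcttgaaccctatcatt
LMO2 +6.6 kb: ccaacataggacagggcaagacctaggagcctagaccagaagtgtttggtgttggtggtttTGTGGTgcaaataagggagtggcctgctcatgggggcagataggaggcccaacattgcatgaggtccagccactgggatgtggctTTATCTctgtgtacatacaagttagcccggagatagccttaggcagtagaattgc

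A second set are 3 of the 4 regions that ranked lower after SCF. They lie at CBFA2T3 (chr16:89070539-89070739, intergenic, upstream), TAL1 (chr1:47658728-47658928, intergenic, downstream of the gene) and NFE2 (chr12:54700886-54701086, in an intron of the neighbouring gene COPZ1).
CBFA2T3 −27.0 kb: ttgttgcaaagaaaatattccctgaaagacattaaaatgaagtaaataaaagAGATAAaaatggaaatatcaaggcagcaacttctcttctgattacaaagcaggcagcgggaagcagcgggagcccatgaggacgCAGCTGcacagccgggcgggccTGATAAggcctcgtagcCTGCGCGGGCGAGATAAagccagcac
TAL1 +39.1 kb: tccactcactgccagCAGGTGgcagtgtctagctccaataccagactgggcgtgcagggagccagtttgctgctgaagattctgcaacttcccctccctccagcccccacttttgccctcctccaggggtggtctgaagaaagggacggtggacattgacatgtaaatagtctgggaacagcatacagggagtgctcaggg
NFE2 −6.19 kb: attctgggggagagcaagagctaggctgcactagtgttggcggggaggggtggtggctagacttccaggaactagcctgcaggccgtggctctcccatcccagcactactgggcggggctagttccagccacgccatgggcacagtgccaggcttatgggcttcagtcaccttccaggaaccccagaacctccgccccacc

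The third set are 4 of the 9 regions with a composite word that were called in all 4 libraries. These 4 fell in none of the classes of change, and were not the only ones. They lie at TAL1 (chr1:47646949-47647149, near the start of a non-coding gene downstream of TAL1), RUNX1 (chr21:36399175-36399375, in an intron), NFE2 (chr12:54698190-54698390, in an intron of COPZ1) and GFI1B (chr9:135879615-135879815, downstream of the gene, the region that also holds the NF-E2 word).
TAL1 +50.8 kb: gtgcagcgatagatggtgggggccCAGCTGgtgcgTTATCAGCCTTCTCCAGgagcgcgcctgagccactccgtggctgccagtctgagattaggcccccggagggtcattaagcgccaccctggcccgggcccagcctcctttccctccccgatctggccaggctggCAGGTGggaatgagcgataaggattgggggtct
RUNX1 +22.3 kb: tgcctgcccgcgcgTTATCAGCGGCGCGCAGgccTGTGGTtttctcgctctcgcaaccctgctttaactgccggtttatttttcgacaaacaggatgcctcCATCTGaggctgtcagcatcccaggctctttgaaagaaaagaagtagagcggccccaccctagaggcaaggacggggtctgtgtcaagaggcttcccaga
NFE2 −3.49 kb: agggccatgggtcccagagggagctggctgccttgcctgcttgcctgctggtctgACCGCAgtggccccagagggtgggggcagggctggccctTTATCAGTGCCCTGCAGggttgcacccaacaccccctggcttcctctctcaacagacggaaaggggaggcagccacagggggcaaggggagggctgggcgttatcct
GFI1B +25.6 kb: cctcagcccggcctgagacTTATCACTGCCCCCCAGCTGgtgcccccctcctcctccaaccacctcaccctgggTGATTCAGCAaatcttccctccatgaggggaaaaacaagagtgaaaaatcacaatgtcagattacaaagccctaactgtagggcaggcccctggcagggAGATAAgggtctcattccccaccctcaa

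Positions are given in kb from the canonical start site of the gene, positive in the direction of transcription. Of the 126 regions, 18 had their summit within 1 kb of a start site of one of the 10 genes, 23 within 1 kb of the start of another coding gene, and 79 farther than 1 kb from any annotated start. A total of 48 lay in the gene they were assigned to. Assignment is by distance, so a region in a neighbouring gene may have nothing to do with the member gene.

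All 4 libraries called 79 of the 126 regions (62.7%), against 51.3% of all regions. Of the others, 20 were called in 1 library, 14 in 2 and 13 in 3. PBS 1 and PBS 2 had 103 and 106 peaks at the 10 genes, and SCF 1 and SCF 2 had 101 and 108, which is 104.5 ± 2.12 and 104.5 ± 4.95 (SD, n = 2, two-sided exact permutation p = 1, smallest possible 0.333). The groups overlapped.

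Peaks were compared between libraries by percentile rank of fold enrichment within a list, where 100 is the highest. Fold enrichment is the summit pileup divided by the local background, each plus 1. For the 79 regions common to all libraries the mean rank had a median of 39.8, against 63.3 over all 22398 such regions. The summit pileup itself ranked the other way, with a median percentile of 70.3 at the 10 genes and 63.6 over all regions. The local background relative to the genome-wide background had a median of 6.13 at the 10 genes and 3.09 over all regions. Both the pileup and the background beside it were thus higher at these genes than in the typical region, as a description with no test.

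Rank classes were defined by call and rank. An SCF-only region had a peak in each SCF library and in no PBS library, and a PBS-only region the reverse. A rank gain was a region called in all 4 whose lower SCF rank lay at least 10 points above its higher PBS rank, and a rank loss the reverse. At the 10 genes, 5 of 126 regions were SCF-only (3.97%, against 1.65% of all regions), 2 were PBS-only (1.59%, against 2.37%), 2 of 79 were rank gains (2.53%, against 2.55%) and 4 were rank losses (5.06%, against 3.04%). Gains thus occurred at the background share. The higher share of SCF-only regions rested on both SCF libraries: without SCF 1 it was 8.87%, against 11.1% of all regions, and without SCF 2 it was 5.83%, against 6.43%. Without any gap, both SCF ranks lay above both PBS ranks in 17 of the 79 regions (21.5%, against 16.0% of all) and below them in 18 (22.8%, against 19.3%).

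No region passed a test across the whole table. In limma on the percentile ranks, 0 of the 79 regions and 0 of all 22398 (0.00%) had an adjusted p below 0.05, and the lowest adjusted p at the 10 genes was 0.824. An unadjusted p below 0.05 was found for 6 of the 79 (7.59%), against 5.87% of all regions. Every difference between SCF and PBS below is therefore a description of these 4 libraries. The median difference in rank, SCF minus PBS, was −1.56 at the 10 genes and −0.53 over all regions, with a range of −23.6 to 26.5 at the 10 genes. Pileup over background was higher after SCF by a median of 1.11-fold over all regions (0.16 on the log2 scale), and log2 differences in pileup are given below relative to that shift.

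**Figure D1:**
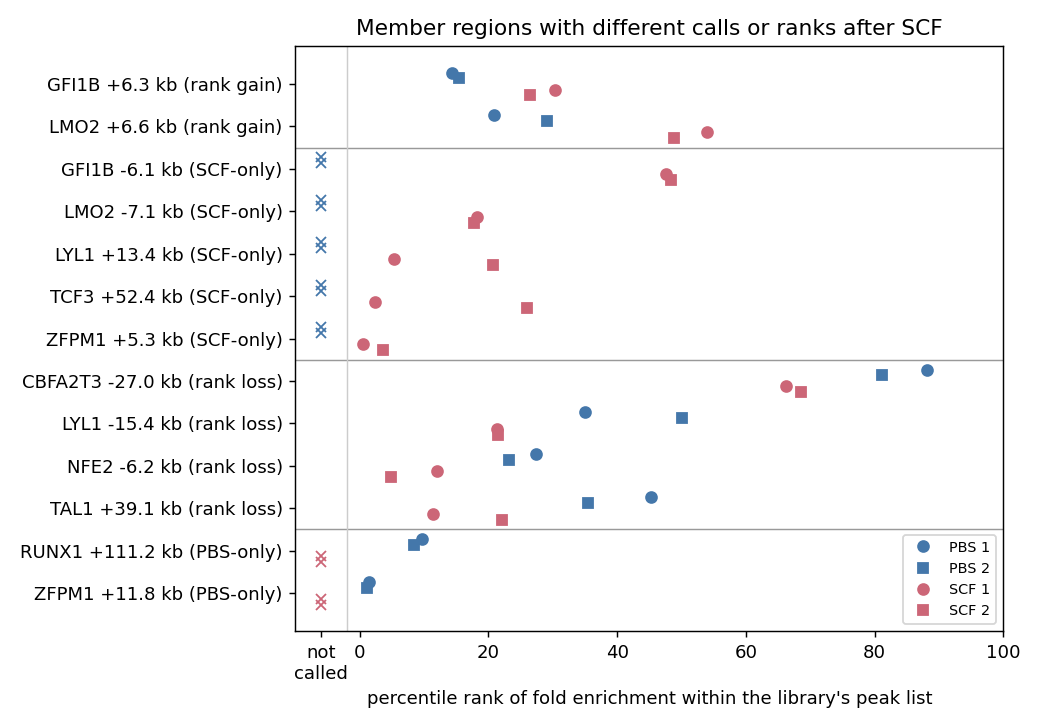
Percentile rank of fold enrichment (x axis, 0 to 100, crosses for libraries that did not call the region) of the 13 regions with different calls or ranks, 1 row a region, PBS in blue and SCF in red, circles for replicate 1 and squares for replicate 2. In each rank gain both red points lie at least 10 points to the right of both blue points, as the class demands, and of the SCF-only regions the one at GFI1B has the highest ranks, 47.6 and 48.4.

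**Figure D2:**
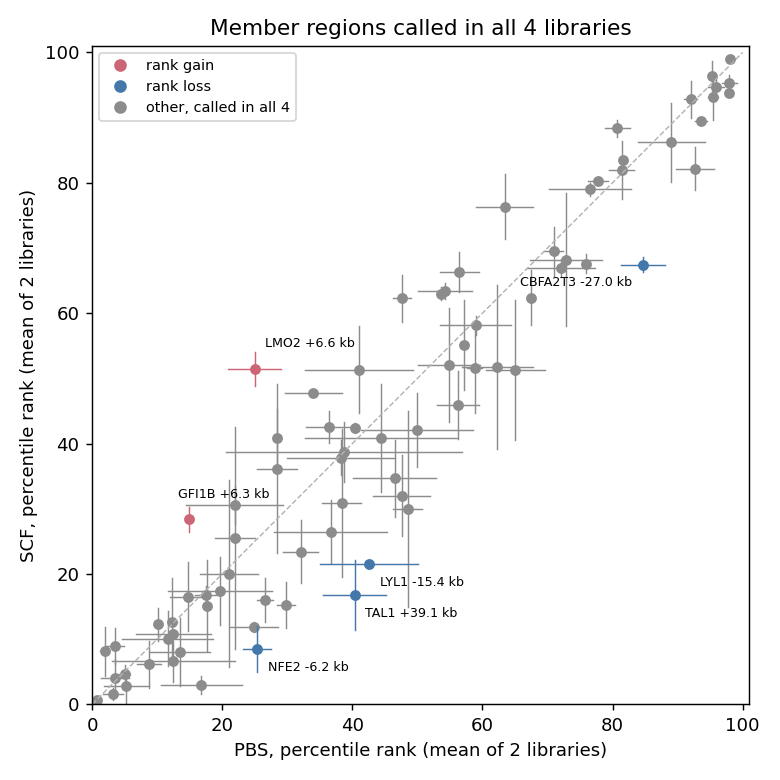
Mean percentile rank of the 79 regions called in all 4 libraries in PBS (x axis) and SCF (y axis), each point the mean of 2 libraries with lines to the values of both libraries and a dashed line of equality. Most points follow the dashed line, with LMO2 +6.6 kb the farthest above it and TAL1 +39.1 kb the farthest below.

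The bHLH genes were taken first. At TAL1, whose product gives the complex its name, 12 regions were found and 6 were called in all 4 libraries. The start-site region (−0.165 kb) ranked 69.4 and 72.4 in PBS and 73.3 and 65.7 in SCF, with 102, 150, 104 and 84 fragments over its summit in PBS 1, PBS 2, SCF 1 and SCF 2. The groups overlapped. The region at +50.8 kb, with a composite word and an E-box on one side of its summit, ranked 77.3 and 66.8 in PBS and 68.4 and 65.5 in SCF, with 142, 168, 111 and 107 fragments.

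Lower ranks after SCF were seen at the region of TAL1 at +39.1 kb. It ranked 45.2 and 35.4 in PBS and 11.3 and 22.1 in SCF, with 30, 35, 18 and 19 fragments. Both SCF libraries were below both PBS libraries, a difference of −23.6 ± 8.70 points (limma, ± SE, unadjusted p = 0.0338, adjusted p = 0.824). Its pileup over background was 28.7 and 23.3 in PBS and 19.1 and 21.5 in SCF, a log2 difference of −0.51 ± 0.26. Of the 7 settings that could change its ranks or calls it kept the class under 6, and a gap of 20 points ended it, as it did every gain and loss here. The highest region of TAL1 outside 1 kb of any start site (+18.8 kb, intergenic) ranked 59.4 and 53.1 in PBS and 51.1 and 40.7 in SCF, which missed overlapping by a narrow margin. Over the 6 regions of TAL1 the mean rank was 47.3 and 43.6 in PBS and 37.1 and 35.7 in SCF, the largest difference among the 10 genes (−9.08, exact permutation p = 0.333, the smallest possible with 2 libraries a group, adjusted over 10 genes 0.741).

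LYL1 encodes a close relative of TAL1 and lies in a gene-dense stretch, with 14 regions, and 12 of them were called in every library, while 6 lay at the start of another coding gene. The region at its own start (−0.212 kb) overlaps the first exon and its UTR, and ranked 57.6 and 59.97 in PBS and 44.7 and 58.5 in SCF with 196, 265, 155 and 161 fragments. SCF 1 was the lowest and SCF 2 lay close to the PBS libraries. A region at the start sites of NACC1 and TRMT1 (−15.4 kb, chr19:13228649-13229437) was a rank loss, at 35.1 and 50.1 in PBS and 21.4 and 21.6 in SCF (limma difference −21.1 ± 9.09, unadjusted p = 0.058, adjusted p = 0.824). The loss was kept under 4 of these 7 settings, and ranking by −log10 p or by pileup also ended it. An intronic region of NFIX (+13.4 kb, chr19:13200140-13200426) was SCF-only with ranks of 5.31 and 20.8 and 15 and 22 fragments, a class lost when a −log10 q of at least 5 was asked for. The highest region outside start sites was in an intron of NACC1 (−29.9 kb), at 50.2 and 58.5 in PBS and 64.7 and 62.2 in SCF. It did not overlap between groups, with a limma difference of 9.12 ± 8.59 points.

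TCF3, which encodes the E proteins that pair with TAL1, had 16 regions, 8 of them called in all 4 libraries. Its canonical start site (−0.202 kb) was among the strongest regions, at ranks of 91.04 and 93.03 in PBS and 95.7 and 89.998 in SCF with 277, 376, 308 and 223 fragments. An intronic region at +19.4 kb ranked 81.997 and 81.3 in PBS and 83.4 and 83.6 in SCF, nearly the same in every library. The only region of TCF3 in a class of change lay in an intron of UQCR11 (+52.4 kb, chr19:1599777-1600194), was SCF-only at ranks of 2.38 and 26.05, and had 13 and 18 fragments at its summit. The class was lost with the stricter q and when summits within 200 bp were joined.

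The bridging genes differed in level. LMO2 encodes a LIM-only protein that has no DNA binding of its own and links the bHLH dimer to LDB1. Its 11 regions ranked low, with a mean of 13.1 and 15.7 in PBS and 15.4 and 20.3 in SCF over the 5 called in all 4 libraries, the lowest of the 10 genes. The region nearest to a start site (+21.8 kb, an internal start) ranked 18.1 and 8.86 in PBS and 2.82 and 13.3 in SCF. Around the canonical start (+0.667 kb) the ranks were 13.01 and 11.7 in PBS and 5.996 and 19.3 in SCF, again with overlapping groups.

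A pair of regions of LMO2 differed by class. The intronic region at +6.6 kb (chr11:33906554-33907319) was a rank gain, from 20.9 and 29.1 in PBS to 54.02 and 48.9 in SCF. Its summit held 20, 30, 32 and 28 fragments, and over background 19.1 and 19.998 in PBS and 33.9 and 31.6 in SCF, a 1.68-fold higher level and a log2 difference of 0.59 ± 0.25 beyond the overall shift. The difference in rank was 26.5 ± 8.98 points (limma, unadjusted p = 0.0247, adjusted p = 0.824), the largest increase among the 79 regions. The gain was kept under 5 of the 7 settings and was lost with a gap of 20 points and with ranks by pileup. The region at −7.12 kb (chr11:33920594-33920974) was SCF-only, at ranks of 18.2 and 17.7 with 10 fragments in each SCF library, close to the lowest pileups called at all in those libraries (6 and 5). Its class was lost at a −log10 q of at least 5.

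LDB1 encodes the LIM-domain binding protein that self-associates and is known for holding enhancers and promoters together. Its 11 regions had no member in a class of change. The start-site region (−0.285 kb) ranked 45.4 and 28.01 in PBS and 21.7 and 31.3 in SCF with overlapping groups. Strong sites flanked the gene, among them an intergenic region at −49.4 kb at 94.9 and 95.5 in PBS and 94.2 and 98.6 in SCF. The start-site region of NOLC1 (−31.9 kb), a nucleolar protein gene, ranked 97.7 and 98.2 in PBS and 94.1 and 93.5 in SCF, a small difference of −4.15 ± 1.52 points (limma, unadjusted p = 0.0333, adjusted p = 0.824) whose log2 difference in pileup was −0.01 ± 0.16.

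**Figure D3:**
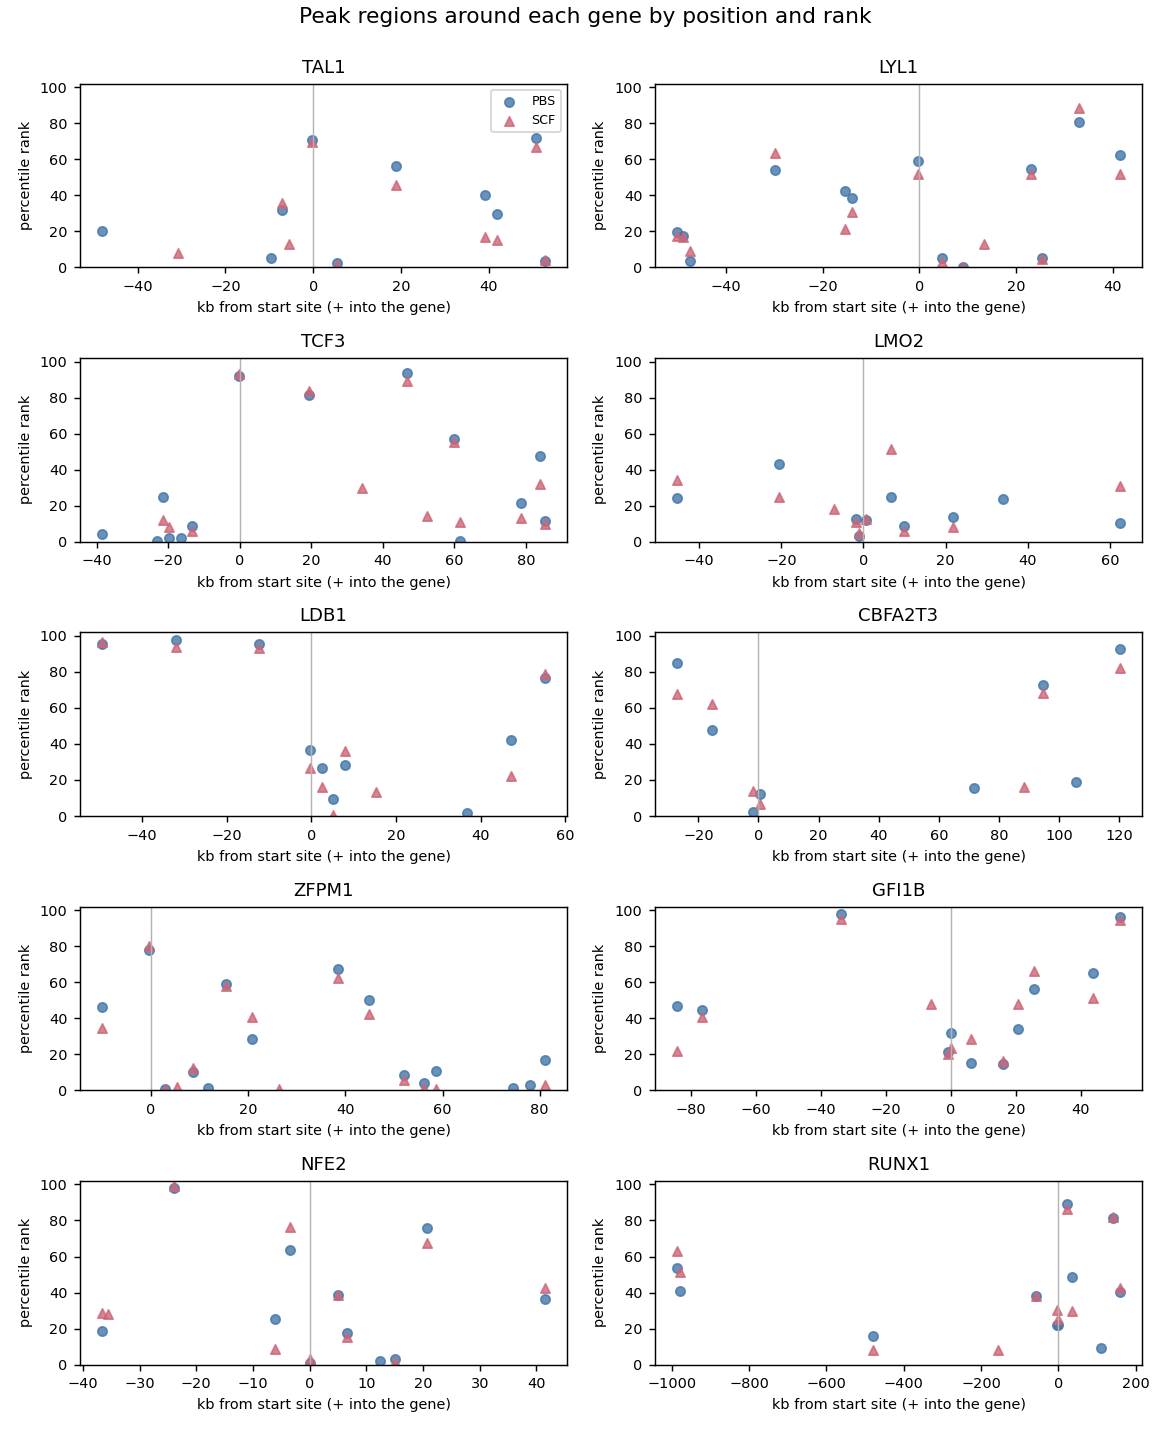
Mean percentile rank (y axis) of every region of the 10 genes against its position in kb from the canonical start site (x axis, positive in the direction of transcription, scaled per gene), PBS as blue circles and SCF as red triangles, each the mean of the libraries that called the region. TCF3 and ZFPM1 have high points at the start site, whereas LMO2, CBFA2T3 and NFE2 have low ones there and higher points farther away.

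Among the repressors and corepressors, CBFA2T3 encodes an ETO-family protein that is carried by the TAL1 complex. It had 9 regions and 5 called in all 4 libraries. Its start-site region (+0.513 kb) was weak, at 2.999 and 21.9 in PBS and 3.48 and 9.71 in SCF. The strongest distal region (−27.0 kb, chr16:89069875-89071123) was a rank loss, at 88.1 and 81.2 in PBS and 66.3 and 68.7 in SCF. It held 81, 92, 49 and 50 fragments at the summit, 77.5 and 61.3 over background in PBS and 51.9 and 56.5 in SCF, and several GATA words, an E-box and a composite word in its sequence above. Both SCF values were below both PBS values on either measure, with a difference in rank of −17.2 ± 5.46 points (limma, unadjusted p = 0.0189, adjusted p = 0.824, the smallest unadjusted p of the 79) and a log2 difference in pileup of −0.50 ± 0.18. The class was kept under 4 of the 7 settings, and was also lost when ranked by −log10 p or by pileup. The start-site region of GALNS and TRAPPC2L (+120.2 kb) ranked 89.8 and 95.7 in PBS and 78.9 and 85.4 in SCF, by a limma difference of −10.6 ± 3.67 (unadjusted p = 0.0270, adjusted p = 0.824).

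ZFPM1 encodes a GATA1 cofactor without direct DNA binding, and had the most regions, 17, of which 15 lay inside the gene. Its start-site region (−0.425 kb) ranked 76.3 and 79.3 in PBS and 79.8 and 80.8 in SCF, and had 214, 298, 215 and 191 fragments. The intronic region at +38.5 kb ranked 67.5 and 67.2 in PBS and 58.2 and 66.5 in SCF. One intronic region was SCF-only (+5.34 kb, chr16:88524844-88525232, ranks 0.506 and 3.66) and another was PBS-only (+11.8 kb, chr16:88531132-88531552, ranks 1.43 and 1.18). Both were at the bottom of the ranking although they held 35 and 39 fragments in SCF and 32 and 39 in PBS, since the local background was 11.9 and 11.2 at the former and 9.73 and 13.3 at the latter. These classes were kept under all 3 settings that could change a call (a stricter q, equal list lengths and joined summits).

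GFI1B encodes a zinc-finger repressor required for erythroid and megakaryocytic development. Of its 12 regions, 10 were called in all 4 libraries. The canonical start-site region (+0.078 kb) ranked 34.7 and 29.4 in PBS and 28.2 and 18.6 in SCF. The intronic region at −6.08 kb was SCF-only with ranks of 47.6 and 48.4, the highest of the 5 SCF-only regions, and 17 and 16 fragments over a low local background of 1.55 and 1.57. The call was kept under the same 3 settings. The region at +6.26 kb (chr9:135859796-135860671) was a rank gain, from 14.4 and 15.5 to 30.3 and 26.4, with 33, 41, 39 and 34 fragments. Its difference of 13.5 ± 6.94 points (limma, unadjusted p = 0.0992, adjusted p = 0.836) was not past the unadjusted threshold either. The summits called in the 4 libraries there spread over 400 bp. The gain was lost under 6 of the 7 settings, all but the gap of 5 points, which could not end it. Downstream of the gene, the region at +25.6 kb with a composite and an NF-E2 word ranked 53.4 and 59.4 in PBS and 63.2 and 69.4 in SCF, without overlap, by 9.85 ± 8.29 points.

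The partner factors were the last group. NFE2 encodes the erythroid subunit of NF-E2, which binds DNA with a small MAF protein. Of its 12 regions 8 were called in all 4 libraries. The region at the canonical start (+0.035 kb) was called only in PBS 2 and SCF 1, at ranks of 0.809 and 2.89. Among the 8, the region nearest to a start site (+5.03 kb, an internal start) ranked 20.6 and 56.8 in PBS and 34.1 and 43.3 in SCF. Its PBS libraries thus lay farther apart than the groups. At −3.49 kb, the region with a composite word across its summit ranked 67.8 and 58.9 in PBS and 71.4 and 81.4 in SCF, without overlap (limma difference 13.0 ± 7.46, unadjusted p = 0.131, adjusted p = 0.843). A short way farther upstream, the region at −6.19 kb (chr12:54700617-54701332) was a rank loss, at 27.4 and 23.2 in PBS and 11.99 and 4.89 in SCF with 39, 46, 25 and 22 fragments. The difference was −16.9 ± 6.68 points (limma, unadjusted p = 0.0437, adjusted p = 0.824) and −0.56 ± 0.23 on the log2 scale of pileup, and the class was kept under 4 of the 7 settings, but not with the stricter q or equal list lengths. None of the 7 words was found within 100 bp of its summit.

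RUNX1 encodes the DNA-binding subunit of core binding factor. With its long upstream isoforms the annotated gene spans 1216868 bp, and 9 of its 12 regions were called in all 4 libraries. The canonical start-site region (+0.062 kb) ranked 18.9 and 24.96 in PBS and 8.43 and 42.5 in SCF, where the SCF libraries stood on both sides of the PBS libraries. Strong intronic sites were found at +22.3 kb (94.3 and 83.8 in PBS, 80.2 and 92.3 in SCF), where a composite, a RUNX and an E-box word lay within 100 bp of the summit. A weak intronic region (+111.2 kb, chr21:36310329-36310806) was PBS-only at ranks of 9.70 and 8.49 with 9 and 12 fragments, and was lost with the stricter q and with equal list lengths.

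**Figure D4:**
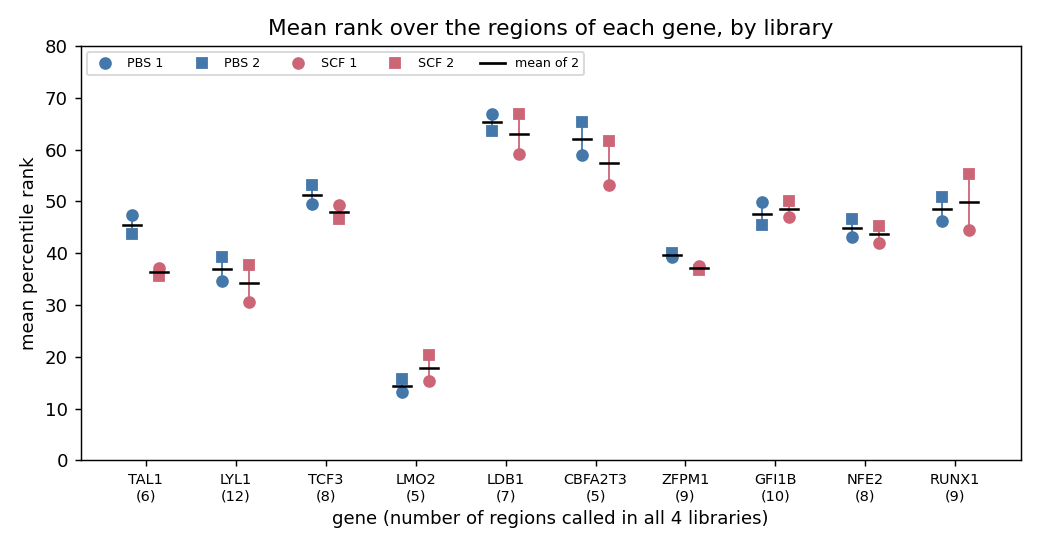
Mean percentile rank over the regions called in all 4 libraries (y axis) for each gene (x axis, number of regions in brackets), circles for replicate 1, squares for replicate 2, black bars for the mean of 2, PBS in blue and SCF in red. LMO2 is the lowest gene in every library, and only at TAL1, TCF3 and ZFPM1 do the SCF points lie wholly below the PBS points.

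Over whole genes, the mean rank in SCF minus PBS was between −9.08 at TAL1 and 3.43 at LMO2. At TAL1 it went from 45.5 ± 2.60 to 36.4 ± 1.02 (SD, n = 2), at TCF3 from 51.3 ± 2.68 to 47.9 ± 1.91 and at ZFPM1 from 39.6 ± 0.554 to 37.1 ± 0.465, without overlap in any of them (exact permutation p = 0.333 each, adjusted 0.741). With the same number of peaks taken from each list the groups overlapped at all 3 genes (exact permutation p = 0.667 at TAL1, 1 at TCF3 and 0.667 at ZFPM1). At all other genes the groups overlapped with the full lists. With equal list lengths they separated at LYL1, LMO2, CBFA2T3 and RUNX1 (exact permutation p = 0.333 each). RUNX1, at 48.5 ± 3.32 in PBS and 49.8 ± 7.73 in SCF, had the widest spread between SCF libraries. The order of the genes by mean rank ran from LMO2 at the bottom to LDB1 (65.3 ± 2.36 in PBS) and CBFA2T3 (62.06 ± 4.48) at the top, and these did not differ beyond their spread. A difference between genes is not one between their activities, since neighbouring genes supply many of the regions.

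For 5 of the words, the share at the 10 genes was close to that of all regions. Of the 126 regions 34 held a GATA word (27.0%, against 25.4% of all), 53 an E-box (42.1%, against 42.8%), 20 a RUNX word (15.9%, against 16.4%), 5 an EGR word (3.97%, against 3.80%) and 1 an NF-E2 word (0.794%, against 0.794%). A composite word was found in 10 (7.94%, against 4.57%) and an AP-1 word in 4 (3.17%, against 8.43%). These shares lie on either side of those of the whole set, and rest on 10 and 4 regions. Among the 40 regions called in all 4 libraries and farther than 1 kb from a start site, the composite was in 6 (15.0%, against 10.7%) and AP-1 in 1 (2.50%, against 12.05%). In the 7 rank gain and SCF-only regions there were 5 with a GATA word (71.4%, against 32.6% of all 1291 such regions), 0 with an AP-1 word (against 20.1%) and 0 with an EGR word (against 4.26%). The 6 rank loss and PBS-only regions had 2 with a GATA word (33.3%, against 27.4% of all 1713 such regions). Both held a composite match as well (33.3%, against 5.20%). There were 0 with AP-1 (against 6.25%), EGR (against 3.27%) or NF-E2 words (against 0.584%). These shares rest on few regions and were not tested.

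**Figure D5:**
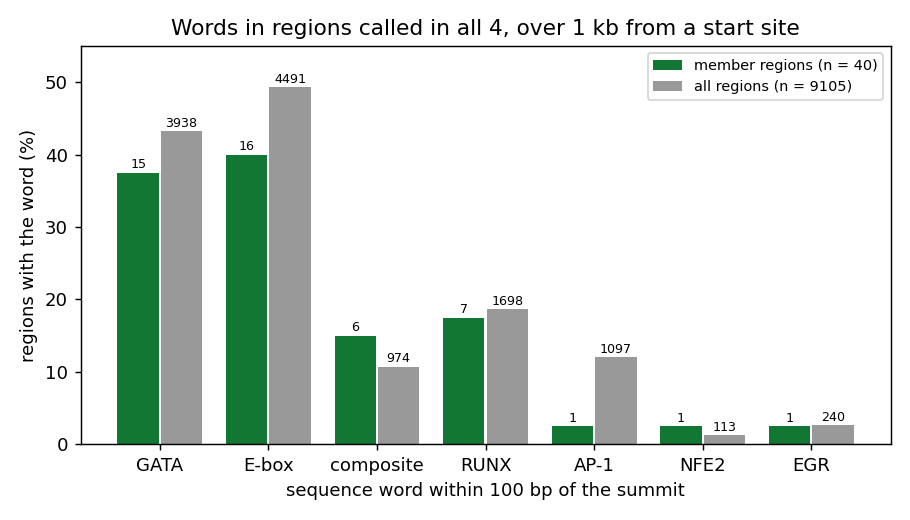
Percent of regions (y axis) with each word within 100 bp of the summit (x axis) among the 40 member regions (green) and all 9105 regions (grey) that were called in all 4 libraries and lie farther than 1 kb from a start site, numbers of regions above the bars. The composite bar is higher for the members (15.0% and 10.7%) and the AP-1 bar is lower (2.50% and 12.05%).

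A list of 32 further genes of the pathway (LIM-only and SSBP cofactors, E proteins, ID inhibitors, ETO and GFI paralogues, small MAF and BACH factors, ETS partners and corepressor subunits) gave 278 regions, and all libraries called 149 of them. Of the 278 regions 6 were SCF-only (2.16%, against 1.65% of all regions) and 8 PBS-only (2.88%, against 2.37%). Of the 149 regions, 2 were rank gains (1.34%, against 2.55%) and 4 rank losses (2.68%, against 3.04%). At ID3, an inhibitor of E proteins, a rank loss went from 60.1 and 59.02 in PBS to 33.8 and 27.6 in SCF with 20, 27, 11 and 9 fragments. A gain at SSBP4, a partner of LDB1, went from 20.3 and 18.9 to 35.6 and 41.03 with 54, 76, 88 and 70 fragments. Losses at SSBP3 (57.9 and 58.9 to 36.2 and 44.05) and MAFG (77.4 and 74.1 to 58.8 and 60.8), a small MAF partner of NFE2, were of similar size. The median difference in rank over this list was 0.50.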

How the data were processed

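ATAC-seq peak lists of 4 sgControl libraries (HUDEP-2, 2 PBS and 2 SCF) were used. By the study's methods and labels, paired ends were processed with the ENCODE ATAC-seq pipeline, and the submitters' processing notes name bcl2fastq, Bowtie2 and SAMtools. The methods name hg38, whereas the series text and the file headers name hg19, and all coordinates were read as hg19. The peak caller and its settings are not given in the sources used here. Replicates were not pooled, and peaks had a q-value of at most 0.05. The deposited columns are an integer score (not used), a fold enrichment (a ratio to local background) and −log10 p and −log10 q values, as the authors' caller wrote them.

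Whole-number summit pileups were recovered from the deposited fold enrichment and −log10 p (Poisson), with a largest relative error of 1.63e-05. The lowest local background of a library (1.05, 1.50, 0.944 and 0.885 fragments in PBS 1, PBS 2, SCF 1 and SCF 2) served as its genome-wide background. Groups and replicate numbers came from the labels, and the peak names inside the lists carry other replicate numbers. Peaks sharing at least 1 bp were merged over the 4 lists (pandas 2.3.3, numpy 2.4.6), and a region took the values of its highest-ranked peak. Gene bodies and start sites were those of GENCODE release 44 on GRCh37, and sequence was read from the same build with pysam 0.24.0. Ranks of regions called in all 4 libraries were tested with limma 3.58.1 in R 4.3.3, without a block, with Benjamini-Hochberg adjustment over all 22398 regions. Mean ranks and peak numbers were tested with two-sided exact permutation tests (scipy 1.17.1), and the test code was checked on simulated data. Counting error is not separated from the spread between libraries. With 2 libraries a group, p-values measure the spread of these libraries only.

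Named regions were, per gene, the region nearest to a start site among those called in all 4 libraries and the one of highest mean rank outside 1 kb of any start, every region of a class of change, and the 5 of smallest p. The TAL1 +50.8 kb region and the regions to show as sequence were chosen after their values were seen. The member genes, the gene and marker lists and the words were chosen with earlier results of these data known. Alternatives were a stricter q, equal list lengths, other windows, another merge, other rank gaps and rank measures, other limma scales, a replicate block and leaving out each library. The limma fit on log2 pileup was added after seeing the data. A marker gene and a sequence are not reported here.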

Additional observations from a re-analysis of the deposited data

How the results depend on the processing

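The limma count at the 10 genes was 0 under every one of the 11 alternatives, the replicate block included, where 4 regions had an unadjusted p below 0.05 and the lowest adjusted p was 0.778. The lowest adjusted p over the alternatives was 0.640. Labels pair PBS and SCF libraries by number only. Deviations of PBS 1 and SCF 1 correlated at 0.0239, and with 2 libraries a group the pair numbered 2 gives the same value by construction.

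The class counts depended on the settings, and each is followed by its share and that of all regions. SCF-only regions numbered 5, and 3 at a −log10 q of at least 5 (2.97%, 1.44%), 3 with a 10 kb window (4.35%, 1.65%) and 2 in gene bodies (4.08%, 1.65%). PBS-only regions numbered 2, and 5 with the stricter q (4.95%, 2.86%) and 1 with equal list lengths (0.833%, 2.22%). They stayed at 2 with a 10 kb window (2.90%, 2.37%) and in gene bodies (4.08%, 2.37%). Rank gains numbered 2, and 6 and 0 with gaps of 5 (7.59%, 6.04%) and 20 points (0%, 0.397%), 1 with summits within 200 bp joined (1.47%, 2.57%), 1 ranked by −log10 p (1.27%, 1.65%) and 0 by pileup (0%, 1.00%). Gains stayed at 2 with a 10 kb window (5.00%, 2.55%) and in gene bodies (6.45%, 2.55%), where fewer regions were counted. Rank losses numbered 4, and 9 and 0 with gaps of 5 (11.4%, 7.73%) and 20 points (0%, 0.545%), 1 with a 10 kb window (2.50%, 3.04%), 0 in gene bodies (0%, 3.04%) and 2 by pileup (2.53%, 1.5%). Leaving out 1 library gave 6 to 11 SCF-only, 5 to 8 PBS-only, 3 to 7 gain and 8 to 16 loss regions, more than with all 4 since fewer libraries have to meet the rule. SCF-only shares were then above those of all regions without PBS 1 (4.92%, 3.11%) or PBS 2 (6.56%, 4.96%) and below them without SCF 1 (8.87%, 11.1%) or SCF 2 (5.83%, 6.43%), and loss shares were above them without any 1 library, from 9.76% against 7.19% to 19.5% against 14.4%. PBS-only shares were below those of all regions whichever library was left out, from 4.03% against 4.61% to 6.67% against 6.97%. So were gain shares, from 3.66% against 5.94% to 8.54% against 10.4%. The difference in peak number was −3.5 to 3.5.

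With equal list lengths, TAL1, TCF3 and ZFPM1 lost their separation of groups, while LYL1, LMO2, CBFA2T3 and RUNX1 gained one. Ranked by −log10 p, TCF3 lost it and NFE2 gained it (exact permutation p = 0.333). In gene bodies LMO2 gained it (exact permutation p = 0.333). Mean ranks changed sign at NFE2 with equal list lengths (0.396), at TCF3 (1.86) and RUNX1 (−1.04) in gene bodies, and at LMO2 (−3.17), LDB1 (0.162) and GFI1B (−2.02) by −log10 p. Leaving out 1 library gave −6.30 to 0.82 at LYL1, −8.98 to 0.678 at CBFA2T3, −1.34 to 2.94 at GFI1B, −2.90 to 0.56 at NFE2 and −4.08 to 6.85 at RUNX1. At TAL1 it gave −10.9 to −7.25. TAL1 had no region called in all 4 libraries inside the gene body, so that alternative gave no value. The cause of these changes was not tested.

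Depth limits the weak sites, with as few as 5 to 7 fragments at the lowest called summit, and 2 libraries a group limit every test.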

Other observations

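Neighbouring regions of a gene differed in direction. At CBFA2T3, between the gene and the region at −27.0 kb, the region at −15.6 kb (in an intron of a non-coding gene, with a GATA word and an E-box) ranked 46.2 and 48.9 in PBS and 58.7 and 65.9 in SCF. Its gap of 9.77 points was just under the 10 points that a rank gain needs, and its log2 difference in pileup was 0.63 (limma, unadjusted p = 0.0107, adjusted p = 0.640), against −0.50 at −27.0 kb (unadjusted p = 0.0105, adjusted p = 0.640). The summits called in the 4 libraries spread over 638 bp at −15.6 kb, against 217 bp at −27.0 kb. At LYL1, the region at +33.1 kb, at a start site of NFIX, with 2 composite words and 3 GATA words near the summit, ranked 82.7 and 78.8 in PBS and 89.6 and 87.04 in SCF, with 112, 133, 144 and 120 fragments. At NFE2, the regions at −3.49 kb and −6.19 kb had rank differences of 13.0 and −16.9 points. These regions were chosen after their values were seen.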
